A study of Mus musculus with 54 samples.

Results

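The glycerol-phosphate and malate-aspartate shuttles were followed as 9 genes of the 19068 in an expression table of the mouse late proximal tubule. The genes were taken by symbol: Gpd2, Gpd1 and Gpd1l of the glycerol-phosphate shuttle, and Mdh1, Mdh2, Got1, Got2, Slc25a11 and Slc25a13 of the malate-aspartate shuttle. Gpd2 was chosen because its RNA was higher in diabetic mice in these libraries, so its values in every comparison of diabetic with nondiabetic mice are given as a description, with no test. The other 8 genes were chosen as its pathway partners, with earlier results of these data known. All 9 had a value in all 52 libraries and reached the mean of 1 TPM (transcripts per 1000000) that 15424 genes met, which were tested.

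RNA came from male DBA mice aged 14 weeks. Diabetic mice carried the Ins2 Akita allele over a wild-type copy (Ins2 Akita/+), a dominant mutation that makes insulin 2 misfold in beta cells and is used as a model of type 1 diabetes, and their littermate controls were Ins2+/+. Each line was either wild type for Sglt1 (gene Slc5a1, the sodium-glucose cotransporter of the late proximal tubule) or Sglt1-/-, called knockout here. Mice received dapagliflozin, an SGLT2 inhibitor, at 10 mg per kg of diet, semaglutide, a GLP-1 receptor agonist, injected under the skin at 3 nmol per kg of body weight per day, or vehicle, in each case for 2 weeks. Semaglutide was given only to Akita wild-type mice. The 9 groups were Akita knockout on dapagliflozin and on vehicle, nondiabetic knockout on dapagliflozin and on vehicle, Akita wild type on semaglutide, on dapagliflozin and on vehicle, and nondiabetic wild type on dapagliflozin and on vehicle. The semaglutide and Akita wild-type dapagliflozin groups had 5 libraries and the other groups 6. Tubules that stained for Lotus lectin but not for SGLT2 were cut out by laser capture, pooled within a sample and sequenced as stranded total RNA. The labels do not say that each library came from its own mouse, so the p-values measure only the spread between these samples.

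Glycolysis makes NADH in the cytosol, and the inner mitochondrial membrane does not let NADH through. In the glycerol-phosphate shuttle, cytosolic GPD1 uses NADH to turn dihydroxyacetone phosphate into glycerol 3-phosphate, and GPD2, an FAD enzyme on the outer face of the inner membrane, turns it back and passes the electrons to ubiquinone. In the malate-aspartate shuttle, cytosolic MDH1 reduces oxaloacetate to malate, the carriers exchange malate, oxoglutarate, aspartate and glutamate across the membrane, and MDH2 makes the NADH again inside.

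Gpd2 (ENSMUSG00000026827) lies on the plus strand of chromosome 2 at chr2:57237635-57370719 in GRCm38. RefSeq's promoter table for GRCm38.p6 holds 2 start sites of Gpd2, at positions 57237678 and 57238382 of chromosome 2. The sequence before each is shown because Gpd2 is the gene whose level differed most between groups; bases of each window that lie in annotated exons were left out. The windows are given 5′ to 3′ on the plus strand, 207 bases at chr2:57237428-57237634 and 165 bases at chr2:57238132-57238296, and capitals mark a GC box read on the other strand.
Gpd2 upstream of the first start: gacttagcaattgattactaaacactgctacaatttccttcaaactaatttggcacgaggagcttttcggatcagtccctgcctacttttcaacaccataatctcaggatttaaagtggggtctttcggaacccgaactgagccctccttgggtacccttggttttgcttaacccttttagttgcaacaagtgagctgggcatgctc
Gpd2 upstream of the second start: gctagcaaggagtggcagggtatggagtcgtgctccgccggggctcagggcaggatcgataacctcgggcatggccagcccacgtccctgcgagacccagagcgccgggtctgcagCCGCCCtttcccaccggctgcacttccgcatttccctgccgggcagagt
The 250 bases before each start were searched on both strands for 5 motifs. These were the E-box, spelled CACGTG, and a motif of nuclear receptors, spelled AGGTCA. The other 3 were the CCAAT box, searched by the letters of its name, the GC box, spelled GGGCGG, and the TATA box, spelled TATAAA, and none of the 5 contains another. The only match in either Gpd2 window was the GC box 134 bases before the second start, a motif that 32.7% of 32851 mouse promoter windows of this length hold. Of the 9 genes, 8 had a promoter entry, and Gpd1 is the exception. An E-box, found in 6.02% of all windows, lay 125 bases before the start of Slc25a13 and 127 bases before that of Gpd1l. A match in a window is a description of its letters.

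TPM values are per length, so levels can be set side by side between genes, and the mean level of the 9 over all libraries spanned 22.3 to 516 TPM. TPM keeps no read depth, so the depth behind a value is unknown. The deposited values of a library summed to between 984393 and 2.25387e+06. Slc5a1 averaged 0.776 to 0.828 TPM in the 4 knockout groups, against 55.01 to 86.2 TPM in the 5 wild-type groups. Slc5a2, the gene of SGLT2, was present although tubules stained for SGLT2 were not cut out. It averaged 41.7 TPM over all libraries and ranged from 3.93 to 205 TPM. All 8 listed S3 markers were present, with summed levels of 3837 to 11479 TPM, and all 7 markers of the S1 and S2 segments were also present at 37.1 to 632 TPM. Other cell types were present in every library. Thick limb markers (3 of 3 in the table) summed to 182 to 2780 TPM, and distal convoluted tubule markers (3 of 3) to 14.7 to 815 TPM. Macrophage and dendritic markers (6 of 6) summed to 295 to 645 TPM, whereas none of the 4 adipocyte markers was in the table. In such tissue RNA, fewer cells of a type and less RNA per cell cannot be told apart.

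Gpd2, the mitochondrial arm of the glycerol-phosphate shuttle, was the member with the widest range, from 20.9 to 165 TPM, a 7.89-fold span around a mean of 85.01 TPM. In wild-type mice on vehicle, it stood at a lowest 98.2, a median 135 and a highest 165 TPM in Akita libraries, against a lowest 20.9, a median 42.2 and a highest 53.0 TPM in nondiabetic libraries. In knockout mice on vehicle, it stood at 62.2, 98.4 and 127 TPM (lowest, median, highest) in Akita libraries, against 38.9, 52.2 and 61.5 TPM in nondiabetic libraries. The Akita and nondiabetic libraries did not overlap in either genotype, although in the knockout the highest nondiabetic library came within 1 TPM of the lowest Akita library. Genes whose Akita libraries all lay above all nondiabetic libraries made up 0.571% of those tested in wild type and 0.272% in knockout. Gpd2 was chosen on this difference, so nothing is read from these shares.

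On dapagliflozin, Gpd2 in knockout mice stood at 97.1, 112 and 127 TPM (lowest, median, highest) in Akita libraries, against 40.6, 78.9 and 136 TPM in nondiabetic libraries. In wild-type mice on dapagliflozin, the 5 Akita libraries had 109, 89.2, 69.3, 118 and 122 TPM, against a lowest 47.0, a median 81.2 and a highest 104 TPM in nondiabetic libraries. On the drug the diabetic and nondiabetic libraries overlapped in both genotypes. The 5 semaglutide libraries of Akita wild-type mice had 110, 55.2, 69.7, 34.4 and 39.8 TPM, so that 4 of 5 lay below the lowest vehicle library of the same genotype and the first lay inside its range.

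Ordered by mean log2 level, Gpd2 averaged 39.8 ± 11.6 TPM in nondiabetic wild type on vehicle, 51.5 ± 8.77 in nondiabetic knockout on vehicle, 61.8 ± 30.3 in Akita wild type on semaglutide and 81.5 ± 21.8 in nondiabetic wild type on dapagliflozin. Above these came 89.7 ± 36.6 TPM in nondiabetic knockout on dapagliflozin, 95.5 ± 25.9 in Akita knockout on vehicle, 101.4 ± 21.9 in Akita wild type on dapagliflozin, 112 ± 12.9 in Akita knockout on dapagliflozin and 131 ± 27.9 in Akita wild type on vehicle (SD, n = 5 or 6). None of the 8 neighbouring pairs in this order was further apart than the larger of their 2 SDs on the log2 scale. The ends of the order stood apart. Above the highest nondiabetic wild-type vehicle library lay all libraries of Akita wild type and Akita knockout on vehicle or dapagliflozin, 5 of 6 of each nondiabetic dapagliflozin group, 3 of 5 on semaglutide and 2 of 6 of the nondiabetic knockout vehicle group.

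**Figure D1:**
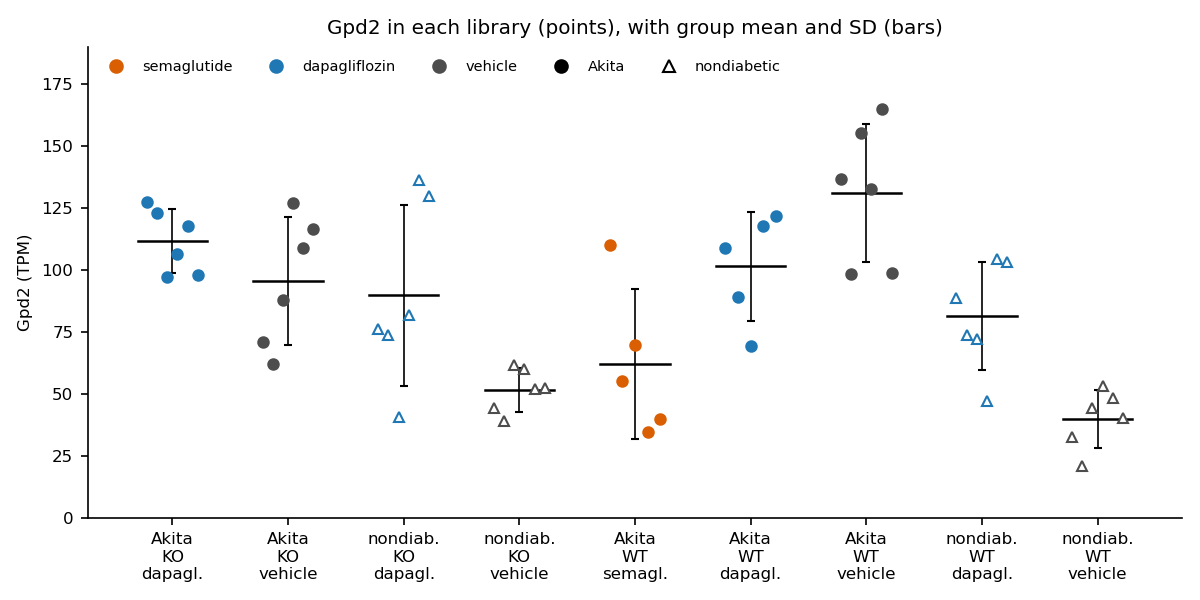
Gpd2 level in TPM (vertical axis, linear) in each of the 52 libraries, by group. Points are libraries (filled for Akita, open for nondiabetic, coloured by treatment) and the bars show the group mean ± SD. Akita wild type on vehicle lies at 98.2 to 165 TPM and nondiabetic wild type on vehicle at 20.9 to 53.0 TPM, with the other 7 groups between or across these ranges.

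The diabetic-minus-nondiabetic difference of Gpd2 was 1.73 on the log2(TPM + 1) scale in wild type on vehicle (SE 0.24, 95% interval 1.24 to 2.21) and 0.85 in knockout on vehicle (SE 0.24). On dapagliflozin the same difference was 0.33 in wild type (SE 0.25) and 0.41 in knockout (SE 0.24). The difference was thus smaller on dapagliflozin than on vehicle by 0.92 on average over both genotypes (SE 0.24, 95% interval of the drug-minus-vehicle contrast −1.41 to −0.43), and smaller in knockout than in wild type by 0.40 on average over both treatments (SE 0.24, interval −0.89 to 0.09). With each library scaled to a sum of 1000000 the drug-minus-vehicle contrast was −0.50, while the median gene stood at 0.35. These values are descriptions, since they share the contrast that chose Gpd2.

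Library measures moved with Gpd2 in the vehicle groups. Summed deposited TPM averaged 1.8579e+06 in Akita wild type on vehicle and 1.42224e+06 in nondiabetic wild type on vehicle, and over the 52 libraries the sum had a Pearson r of 0.46 with log2 Gpd2. The S3 score, the mean log2 level of the S3 markers without Slc5a1, had an r of 0.33 with Gpd2, and 0.51 with group means subtracted. It averaged 9.22 in Akita and 9.19 in nondiabetic wild type on vehicle. The score of other cell types, the mean log2 level of their markers, had an r of −0.40 with Gpd2 over the same libraries, and −0.33 with group means subtracted. The lowest 2 Gpd2 libraries of all 52, at 20.9 and 32.4 TPM in nondiabetic wild type on vehicle, had scores of 4.05 and 4.39, against a median of 3.39. Macrophage and dendritic markers summed to 308 to 398 TPM in Akita and 346 to 624 TPM in nondiabetic wild type on vehicle, with none of the 6 markers past the threshold and a median log2 difference of −0.67. The difference in wild type on vehicle was 1.46 without the 3 libraries of highest score. It was 1.32 with every library scaled to a sum of 1000000, where the median gene moved to −0.30, which puts Gpd2 1.62 above the median gene, against 1.68 before that scaling.

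Dapagliflozin in nondiabetic wild-type mice gave Gpd2 levels of 81.5 ± 21.8 TPM, against 39.8 ± 11.6 TPM on vehicle (SD, n = 6 each). All 6 dapagliflozin libraries lay above the vehicle median, and 5 of 6 above the highest vehicle library. The log2 difference was 1.03 (SE 0.24, 95% interval 0.54 to 1.51), the sixth smallest p of 15424 genes, but it did not pass limma's test after Benjamini-Hochberg adjustment (adjusted p = 0.238). No tested alternative brought it past the threshold: the adjusted p lay between 0.108 and 0.749 (0.0659 to 0.673 with a library left out), and the difference was 0.76 without the 3 libraries of highest other-cell score. With each library scaled to a sum of 1000000 the difference was 0.63 while the median gene stood at −0.31. The vehicle libraries here are those that entered the choice of Gpd2, so a low vehicle level in them raises both the diabetes and the dapagliflozin difference.

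Dapagliflozin was also compared with vehicle in the other 3 backgrounds. In nondiabetic knockout mice the levels were 89.7 ± 36.6 TPM on dapagliflozin and 51.5 ± 8.77 TPM on vehicle (log2 difference 0.70, SE 0.24, adjusted p = 0.966 by limma), with 5 of 6 libraries above the vehicle median. Gpd2 was chosen for its rise with diabetes, and this vehicle group is nondiabetic, so the choice favoured a higher value on the drug. In Akita knockout mice they were 112 ± 12.9 TPM on dapagliflozin and 95.5 ± 25.9 TPM on vehicle (0.26, SE 0.24, interval −0.22 to 0.74). In Akita wild-type mice they were 101.4 ± 21.9 TPM on dapagliflozin and 131 ± 27.9 TPM on vehicle (−0.37, SE 0.25, interval −0.88 to 0.14), with none of the 5 libraries above the vehicle median. That Akita wild-type vehicle group entered the choice of Gpd2 as the high group, so the choice favoured a lower value on the drug. With each library scaled to a sum of 1000000 the difference was 0.50 in Akita knockout and −0.15 in Akita wild-type mice, where the median gene stood at 0.20 in both. Gpd2 passed the test in none of these 3 contrasts.

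Semaglutide in Akita wild-type mice gave 61.8 ± 30.3 TPM (n = 5), against 131 ± 27.9 TPM on vehicle (n = 6, SD). All 5 semaglutide libraries lay below the vehicle median. The log2 difference was −1.17 (SE 0.25, interval −1.68 to −0.66), the fourth smallest p of 15424 genes, and it did not pass limma's test (adjusted p = 0.109). The outcome depended on single libraries and on the settings. Without the semaglutide library at 110 TPM the difference was −1.40 with an adjusted p of 0.0066 by limma. Without the one at 34.4 TPM it was −0.99 with an adjusted p of 0.680. Over the 13 other alternatives the adjusted p ran from 0.0165 to 0.482, and 2 of them, array weights and the library number as covariate, brought it past the threshold. Library numbers ran from 88 to 99 on semaglutide and from 1 to 82 in its vehicle group. They did not overlap, so library number and drug cannot be told apart between these groups. Summed TPM averaged 1.51315e+06 in the semaglutide group and 1.8579e+06 in its vehicle group, and with each library scaled to a sum of 1000000 the difference was −0.83 while the median gene stood at 0.28. The vehicle group is again the one that entered the choice of Gpd2 as the high group, so the choice favoured a lower value on semaglutide.

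Gpd2 passed in neither Sglt1 knockout comparison tested. In Akita mice on vehicle the levels were 95.5 ± 25.9 TPM in knockout and 131 ± 27.9 TPM in wild type (log2 difference −0.47, SE 0.24, interval −0.95 to 0.01, adjusted p = 0.999 by limma), with none of the 6 knockout libraries above the wild-type median. The wild-type group is again the one that entered the choice of Gpd2 as the high group, so the choice favoured a lower value in knockout. With each library scaled to a sum of 1000000 the difference was −0.27 while the median gene stood at 0.17. In nondiabetic mice on vehicle the direction was opposite, at 51.5 ± 8.77 TPM in knockout and 39.8 ± 11.6 TPM in wild type. That wild-type group entered the choice as the low group. On dapagliflozin the knockout means were also higher, at 89.7 against 81.5 TPM in nondiabetic and 112 against 101.4 TPM in Akita mice. None of these differences was tested on its own. Averaged over diabetes and treatment, the knockout-minus-wild-type difference was 0.04 (SE 0.12, interval −0.20 to 0.29). After scaling to a sum of 1000000 this averaged difference was 0.26, while the median gene stood at 0.19.

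Gpd1 (ENSMUSG00000023019, plus strand, chr15:99717515-99725005), the cytosolic NAD-linked partner, averaged 141 TPM over all libraries and ranged from 66.2 to 234 TPM. In wild-type mice on vehicle it stood at 119, 188 and 221 TPM (lowest, median, highest) in Akita libraries, against 66.2, 119 and 200 TPM in nondiabetic libraries. In knockout mice on vehicle it stood at 106, 131 and 234 TPM in Akita libraries, against 87.8, 104 and 133 TPM in nondiabetic libraries. The groups overlapped in both genotypes, with 5 of 6 Akita wild-type and 6 of 6 Akita knockout libraries above the nondiabetic median.

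Taken over both genotypes and over both the vehicle and the dapagliflozin groups, Gpd1 rose with diabetes, at 161 ± 40.8 TPM in Akita mice (SD, n = 23) and 122 ± 34.9 TPM in nondiabetic mice (n = 24). The log2 difference was 0.40 (SE 0.11, interval 0.19 to 0.61, adjusted p = 0.0492 by limma), with 18 of 23 Akita libraries above the nondiabetic median. Gpd1 was thereby the only one of the 8 genes other than Gpd2 to pass in this comparison, where 0.966% of all tested genes passed in either direction and 0.784% were higher. The call sat at the threshold: it was lost in 9 of 13 alternatives (adjusted p 0.0294 to 0.268) and when any of 32 of the 47 libraries was left out (0.0156 to 0.0980), while the difference stayed between 0.29 and 0.42 over the alternatives. Single contrasts did not pass: the difference was 0.65 in wild type on vehicle (SE 0.21, adjusted p = 0.192), 0.47 in knockout on vehicle (adjusted p = 0.738), 0.06 in wild type on dapagliflozin and 0.42 in knockout on dapagliflozin (adjusted p = 0.945). With each library scaled to a sum of 1000000 the difference on vehicle was 0.24 in wild type, where the median gene stood at −0.30, and 0.25 in knockout, where it stood at −0.18.

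Gpd1 averaged 142 ± 25.4 TPM on semaglutide and 182 ± 34.5 TPM on vehicle in Akita wild-type mice, a log2 difference of −0.35 (SE 0.22) that did not pass. With each library scaled to a sum of 1000000 this difference was −0.02 while the median gene stood at 0.28. The ratio of Gpd2 to Gpd1, which compares the mitochondrial with the cytosolic enzyme within a library, was 0.763 ± 0.307 in Akita wild type and 0.346 ± 0.0929 in nondiabetic wild type on vehicle (SD, n = 6 each). It was 0.446 ± 0.237 on semaglutide. In knockout mice the ratio was 0.669 ± 0.267 in Akita and 0.497 ± 0.124 in nondiabetic libraries on vehicle, and 0.758 ± 0.146 in Akita and 0.773 ± 0.203 in nondiabetic libraries on dapagliflozin. The 6 Akita wild-type vehicle libraries, at 0.514 to 1.31, did not overlap the 6 nondiabetic ones, at 0.233 to 0.477. Because Gpd2 was chosen on this contrast, the ratio is a description too.

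Gpd1l (ENSMUSG00000050627, minus strand, chr9:114899341-114933987), a cytosolic GPD1-like protein best known from the heart, was the lowest of the 9 genes, at 9.85 to 36.1 TPM and a median of 0.167 times Gpd1 within libraries. Its group means kept within 19.4 to 25.0 TPM. It averaged 23.6 TPM in Akita mice and 21.0 TPM in nondiabetic mice over vehicle and dapagliflozin (log2 difference 0.18, SE 0.10, adjusted p = 0.424).

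**Figure D2:**
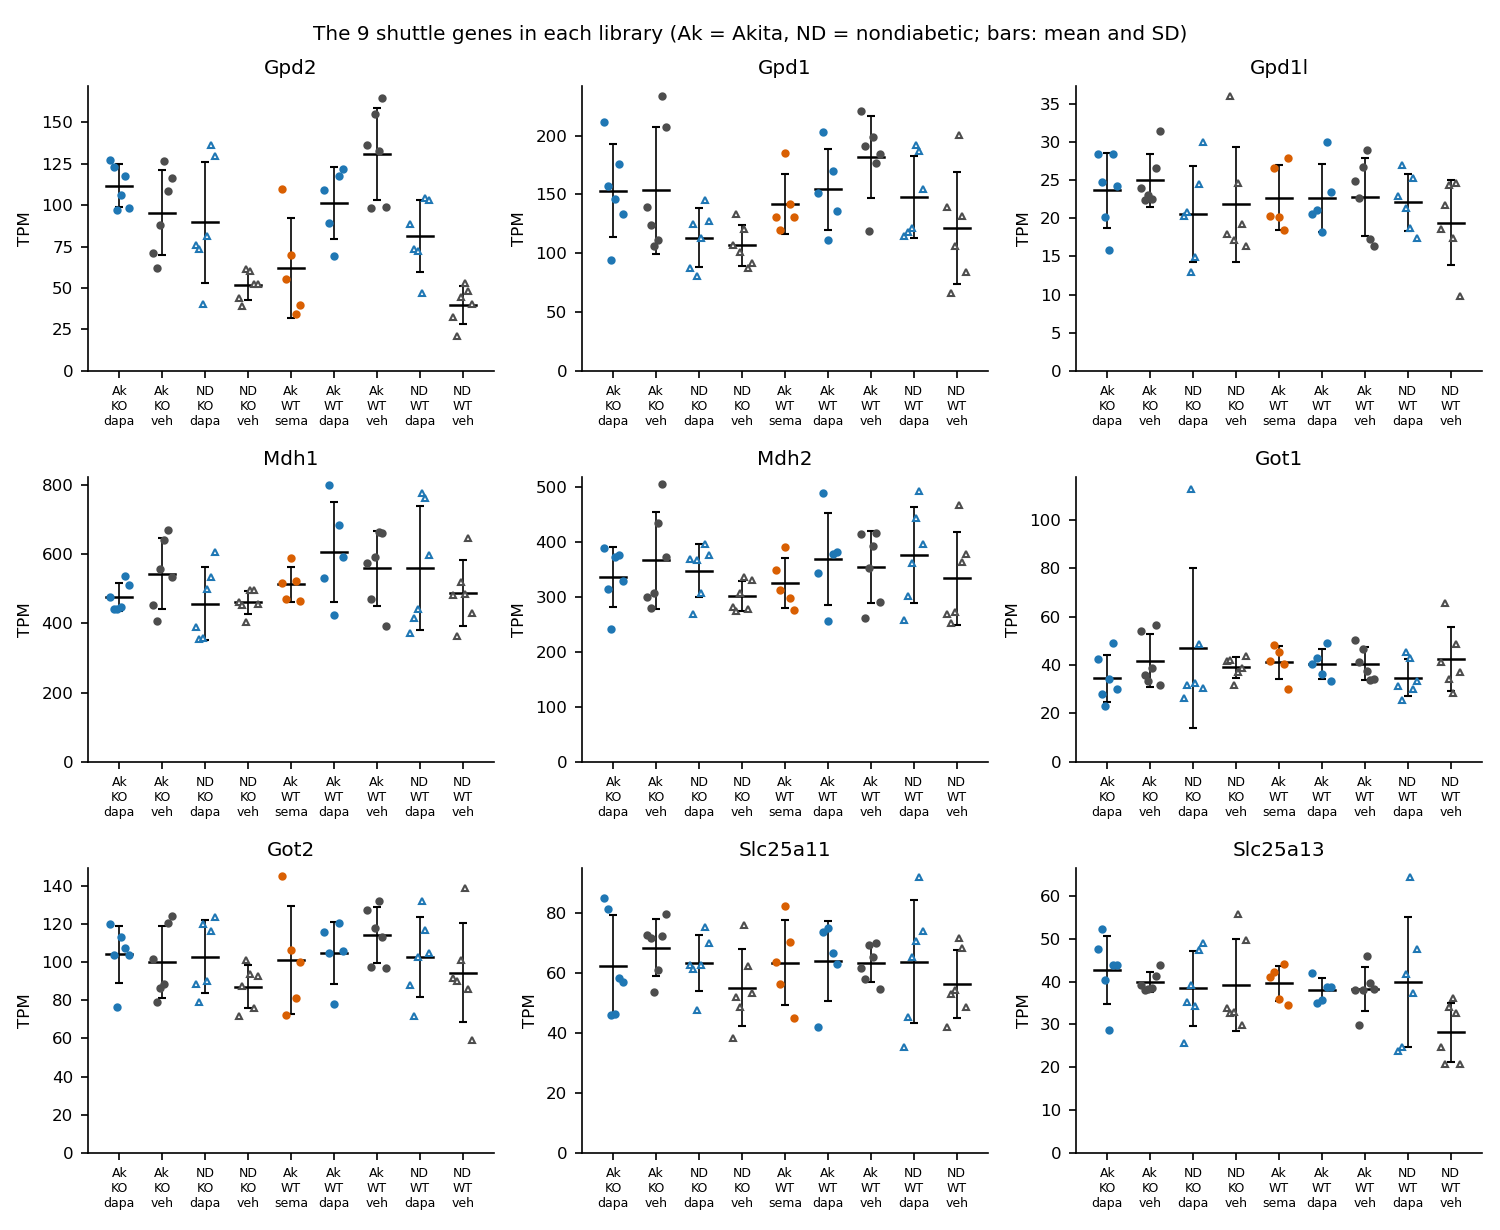
Level of each of the 9 genes in TPM (linear axes from 0, each panel with its own scale) in the 52 libraries, by group, with the group mean and SD as bars. Mdh1 and Mdh2 reach 800 and 506 TPM and Gpd1l 36.1 TPM, and the group means of Gpd2 lie further apart, relative to their level, than those of any other member.

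The malate dehydrogenases were the most abundant of the 9 genes. Mdh1 (ENSMUSG00000020321, minus strand, chr11:21556787-21572367), the cytosolic enzyme, averaged 516 TPM, at percentile 99.2 of all 19068 genes in the table, with group means of 457 to 606 TPM. Mdh2 (ENSMUSG00000019179, plus strand, chr5:135778480-135790398), the mitochondrial enzyme, averaged 346 TPM, with group means of 302 to 376 TPM. In wild-type mice on vehicle Mdh1 averaged 559 ± 108 TPM in Akita and 488 ± 94.6 TPM in nondiabetic libraries, and Mdh2 averaged 355 ± 65.7 and 334 ± 84.3 TPM in the same groups (SD, n = 6 each). These differences were smaller than the spread within groups. Their ratio within a library, Mdh2 to Mdh1, had a median of 0.664 and a range of 0.526 to 1.03. The pair moved together across libraries more closely than any other pair of members (Pearson r 0.70 over 52 libraries and 0.71 after group means were subtracted), with the libraries' shared scale in both values.

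The transaminases convert aspartate and oxaloacetate into each other on either side of the membrane. Got1 (ENSMUSG00000025190, minus strand, chr19:43499752-43524605), the cytosolic enzyme, averaged 40.2 TPM with group means of 34.5 to 47.2 TPM. Its highest library, at 113 TPM in nondiabetic knockout on dapagliflozin, stood far above the other 5 of its group, at 26.4 to 48.7 TPM. That library also had the highest S1 and S2 marker score of its group, 5.61, and the lowest S3 score of all libraries, 7.90 without Slc5a1. Over the 52 libraries Got1 had an r of 0.44 with the S1 and S2 score, and it was the only member with a negative r with Gpd2 (−0.24, and −0.30 with group means subtracted). The part of other segments in these values was not tested.

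Got2 (ENSMUSG00000031672, minus strand, chr8:95864134-95888547), the mitochondrial transaminase, averaged 101.3 TPM with group means of 87.1 to 114 TPM. In wild-type mice on vehicle it averaged 114 ± 14.8 TPM in Akita and 94.6 ± 26.0 TPM in nondiabetic libraries, a log2 difference of 0.30 (SE 0.16, adjusted p = 0.536) with 6 of 6 Akita libraries above the nondiabetic median. Its level is uncertain, because transcripts of Got2-ps1 and Gm10874 match Got2 at 99.1% over 1293 bases and 98.8% over 1637 bases, and reads could be split between them. Those copies were low in the table, at means of 3.11 and 0.590 TPM. The median ratio of Got2 to Got1 was 2.53.

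Of the carriers, Slc25a11 (ENSMUSG00000014606, minus strand, chr11:70644196-70647479) exchanges malate for oxoglutarate. It averaged 62.1 TPM, with group means of 55.005 to 68.4 TPM, and overlaps Rnf167 on the other strand, which averaged 36.0 TPM. Averaged over genotype and treatment, Slc25a11 was at 64.5 TPM in Akita mice and 59.6 TPM in nondiabetic mice (log2 difference 0.13, SE 0.09, adjusted p = 0.578).

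Slc25a13 (ENSMUSG00000015112, minus strand, chr6:6041218-6217173) encodes citrin, which exchanges mitochondrial aspartate for cytosolic glutamate. Its 9 group means fell into 8 between 38.1 and 42.8 TPM and 1 below them, nondiabetic wild type on vehicle, at 28.1 ± 6.93 TPM (SD, n = 6). This was the only neighbouring pair among the groups of any of the 9 genes that was further apart than the larger SD. In wild-type mice on vehicle Slc25a13 stood at 29.9, 38.2 and 46.1 TPM (lowest, median, highest) in Akita libraries, against 20.7, 28.7 and 36.1 TPM in nondiabetic libraries. The difference was 0.46 (SE 0.18, adjusted p = 0.336 by limma), with all 6 Akita libraries above the nondiabetic median. In nondiabetic wild-type mice it averaged 39.9 ± 15.3 TPM on dapagliflozin and 28.1 ± 6.93 TPM on vehicle (0.44, SE 0.18, adjusted p = 0.638). Both contrasts share the low vehicle group, and with libraries scaled to a sum of 1000000 they were 0.06 and 0.05, where the median gene stood at −0.30 and −0.31. The paralogue Slc25a12 (aralar) averaged 34.2 ± 2.58 TPM in Akita and 33.4 ± 10.4 TPM in nondiabetic wild-type mice on vehicle. The ratio of Slc25a13 to Slc25a12 was 1.12 ± 0.126 in the same Akita and 0.904 ± 0.278 in the nondiabetic libraries.

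As a list, the 8 genes other than Gpd2 had a median diabetic-minus-nondiabetic log2 difference of 0.22 in wild type on vehicle, against 0.05 over all tested genes. None of the 8 passed limma's test (0.389% of all genes did) and 2 had an unadjusted p under 0.05, as did 10.2% of all genes. In knockout on vehicle the median was 0.22, against 0.01 over all genes, with all 8 differences above 0. None passed by limma (0% of all genes) and 1 had an unadjusted p under 0.05, as did 6.65% of all genes. On dapagliflozin the medians were 0.04 in wild type (none passed, 0.00648% of all genes) and 0.05 in knockout (none passed, 0% of all genes), against 0.02 and 0.03 over all genes, and none of the 8 had an unadjusted p under 0.05, against 3.46% of all genes in wild type and 5.12% in knockout. Averaged, the median was 0.15, against 0.03 over all genes, with 7 of 8 differences above 0. The sign depended on the scale: 7 of 8 were above 0 in wild type on vehicle as deposited, and 2 of 8 after scaling to a sum of 1000000, while 7 of 8 lay above the median of all genes under both.

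**Figure D3:**
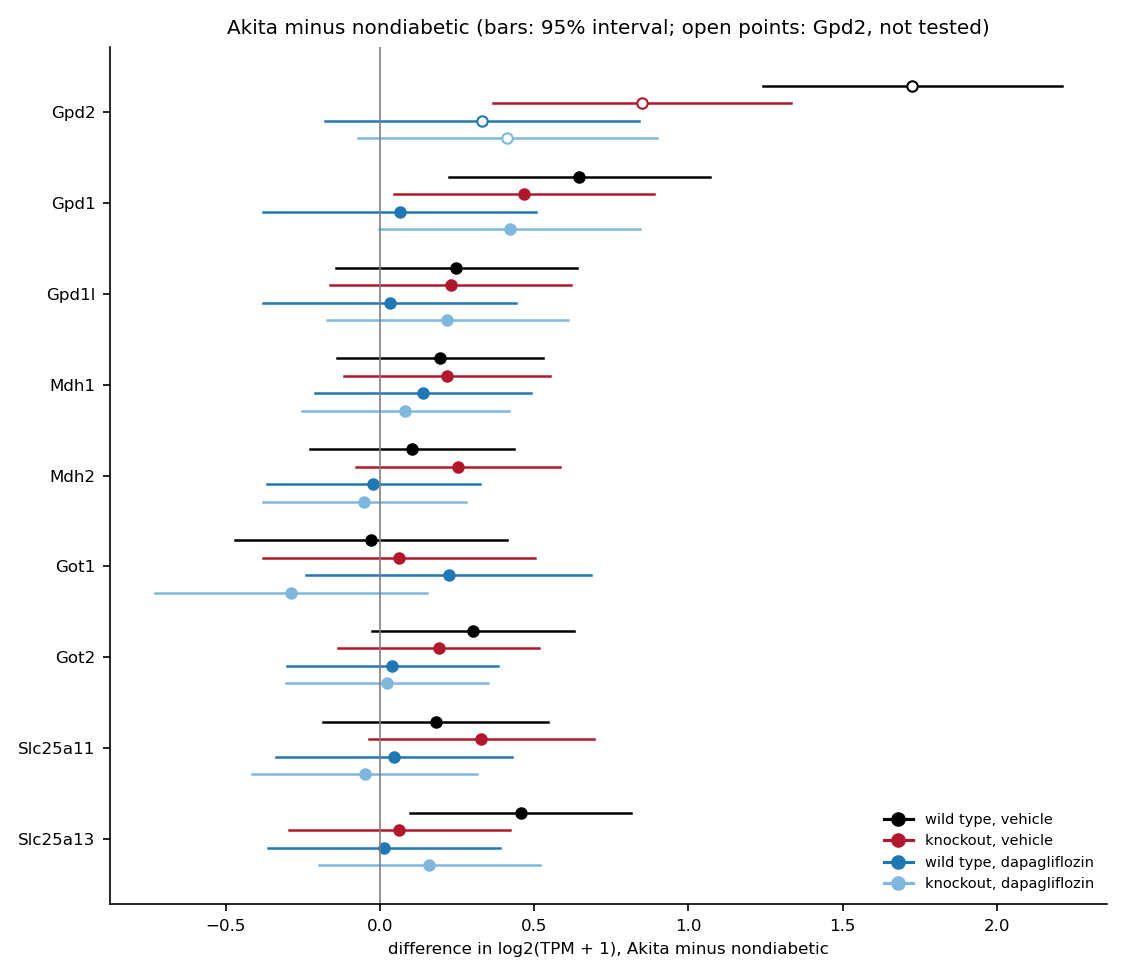
Diabetic-minus-nondiabetic difference in log2(TPM + 1) of each gene (points) with its 95% interval (lines) in each genotype and treatment. Gpd2 is at 1.73 in wild type on vehicle and 0.85 in knockout on vehicle, and the points of the other 8 genes lie between −0.29 and 0.65. The Gpd2 points are those it was chosen for.

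Under the drugs, none of the 9 genes passed by limma. In nondiabetic wild-type mice on dapagliflozin the median of the 9 was 0.17, against 0.03 over all genes (0.00648% of which passed), with 8 of 9 above 0 as deposited and 2 of 9 after scaling to a sum of 1000000. Gpd2 and Slc25a13 were the 2 members at an unadjusted p under 0.05 there, as were 7.03% of all genes. The vehicle groups of this and of the semaglutide comparison entered the choice of Gpd2, which favoured its place in both counts. In Akita wild-type mice on dapagliflozin the median was −0.00 (all genes 0.00, 0% passed), in Akita knockout −0.09 (all genes −0.01, 0% passed) and in nondiabetic knockout 0.07 (all genes −0.02, 0% passed). Members at an unadjusted p under 0.05 numbered 0, 0 and 1 in these 3 comparisons, against 2.39%, 3.13% and 4.74% of all genes. The 1 member in nondiabetic knockout was Gpd2, and its choice for a rise with diabetes favoured its place there too. For semaglutide it was −0.11 (all genes −0.01, 0% passed), with Gpd2 the only member at an unadjusted p under 0.05, as were 5.19% of all genes. For the knockout it was 0.02 in Akita mice on vehicle (0.0259% of genes passed) and −0.01 averaged (0.0519% passed), with Mdh1 at −0.17 (SE 0.08, adjusted p = 0.686) the only member at an unadjusted p under 0.05 in the averaged comparison, as were 7.22% of all genes. Averaged over all 4 backgrounds, dapagliflozin gave a median of 0.05 and none passed (0% of all genes). Gpd2, the only member at an unadjusted p under 0.05, as were 4.09% of all genes, had the largest averaged value, 0.40 (SE 0.12, adjusted p = 0.999). Behind this average stood 1.03 and 0.70 in nondiabetic wild type and knockout, and −0.37 and 0.26 in Akita wild type and knockout. Vehicle groups that entered the choice of Gpd2 are part of this average, so its place here is not independent of that choice.

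The diabetic-minus-nondiabetic difference was lower on dapagliflozin than on vehicle in all 8 genes other than Gpd2 as deposited, with contrasts of −0.31 to −0.05 on the log2 scale, and none passed the interaction test (0.00648% of all genes did). This direction also turned with the scale. After scaling to a sum of 1000000 all 8 were above 0, with a median of 0.21 against 0.35 over all genes, so that 8 of 8 lay below the median of all genes on either scale. For the diabetes-by-knockout contrast, 4 of 8 were above 0, with a median of 0.00 and none past the threshold (0% of all genes).

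**Figure D4:**
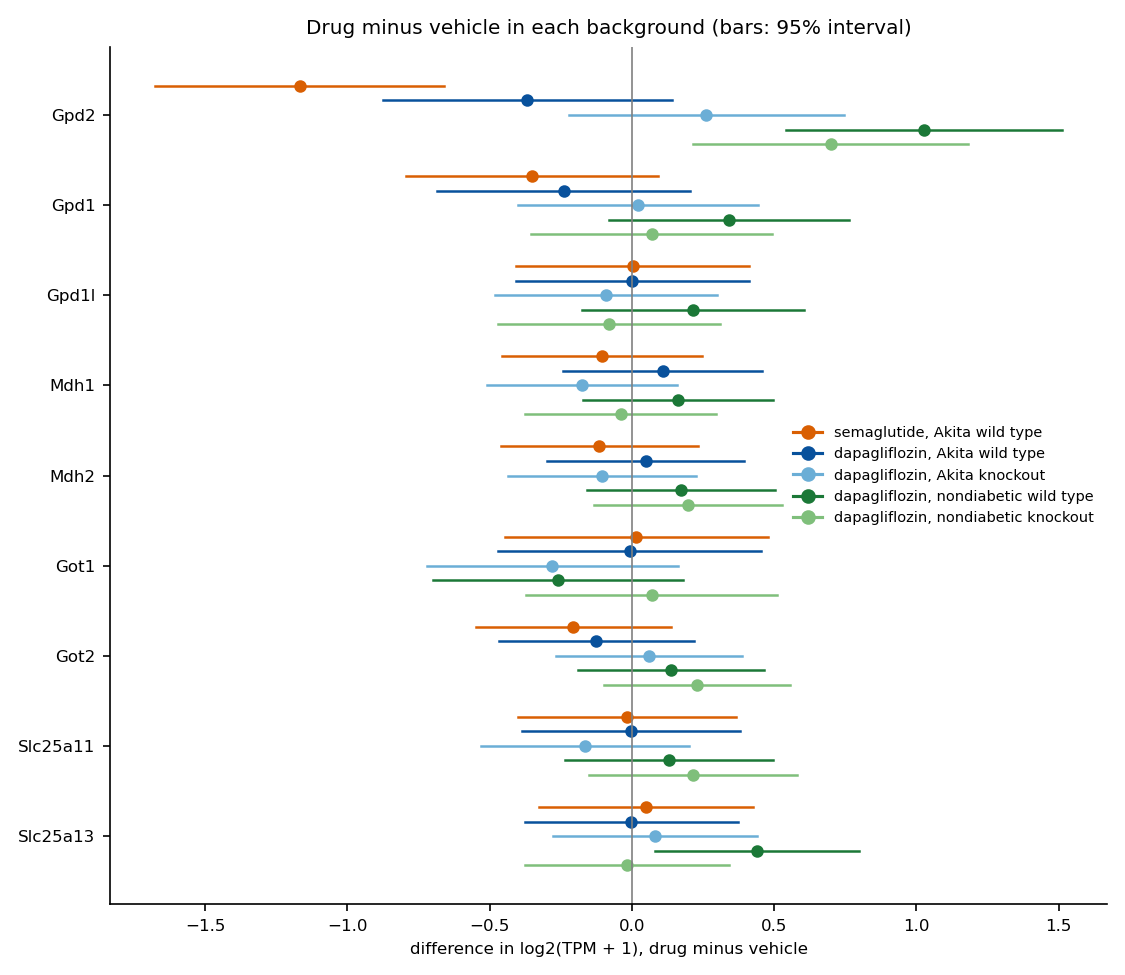
Drug-minus-vehicle difference in log2(TPM + 1) of each gene (points) with its 95% interval (lines), for semaglutide in Akita wild type and for dapagliflozin in 4 backgrounds. Gpd2 runs from −1.17 on semaglutide to 1.03 on dapagliflozin in nondiabetic wild type, and the other genes stay between −0.35 and 0.44.

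Among neighbouring pathways, of 11 cytosolic enzymes of NADH, malate and oxaloacetate, 2 rose with diabetes when averaged. Of all tested genes, 0.784% were higher and 0.966% passed in either direction. The list was chosen with earlier results of these data known, so nothing is read from these shares. Sord, sorbitol dehydrogenase, which makes NADH while turning sorbitol into fructose, was at 466 ± 81.0 TPM in Akita and 365 ± 77.3 TPM in nondiabetic mice (0.36, SE 0.08, adjusted p = 0.0186). Acly, ATP-citrate lyase, which yields cytosolic oxaloacetate, was at 129 ± 26.0 TPM in Akita and 102 ± 25.9 TPM in nondiabetic mice (0.35, SE 0.09, adjusted p = 0.0485). The Acly call sat at the threshold. Neither of the 2 calls was followed through the alternatives, where the count of all genes passing fell from 149 to as few as 53.

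None of the 11 glutamate and aspartate genes passed when averaged (0.966% of all tested genes did), and their median was 0.02 with 6 of 11 above 0, against a median of 0.03 over all genes. None of the 6 tested carriers related to Slc25a11 and Slc25a13 passed (median 0.12). Of the 9 tested dehydrogenases that, like GPD2, reduce ubiquinone, none passed and 8 were above 0 (median 0.18). The nearest was Sqor, the sulfide-oxidising enzyme, at 73.8 TPM in Akita and 57.1 TPM in nondiabetic mice (0.35, SE 0.11, adjusted p = 0.110).

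Gpd2's profile over the libraries was set beside those of 8329 genes whose mean reached 10 TPM. Predicted genes, known by their names (Gm with digits, names ending in Rik, or accession names), were left out. The gene most like it was Slc5a10, a sodium-coupled sugar transporter of the kidney, with a Pearson r of 0.90 over 52 libraries and 0.82 after group means were subtracted. It ranked first by both, by Spearman's rho (0.90) and without the 2 libraries farthest from the median (r 0.89). Slc5a10 averaged 1058 TPM in Akita and 435 TPM in nondiabetic wild-type mice on vehicle, and 526 TPM on semaglutide. The ratio of Slc5a10 to Gpd2 stayed between 7.43 and 9.03 as group means in 8 groups, and was 10.96 in nondiabetic wild type on vehicle.

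Among the next closest were Slc2a5, a fructose transporter (r 0.80), Khk, ketohexokinase (0.78), and Pklr, the liver and red-cell pyruvate kinase (0.77). Slc2a5 averaged 535 ± 107 TPM in Akita and 228 ± 150 TPM in nondiabetic wild-type mice on vehicle. Khk averaged 623 ± 149 TPM in Akita and 346 ± 118 TPM in nondiabetic wild-type mice on vehicle. On semaglutide Slc2a5 averaged 243 ± 112 TPM and Khk 349 ± 138 TPM. The shuttle genes themselves were further down: Gpd1 ranked 221st (r 0.52), Got2 393rd and Got1 7513th. All these r values are descriptions, over libraries that share scale and tissue makeup.

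**Figure D5:**
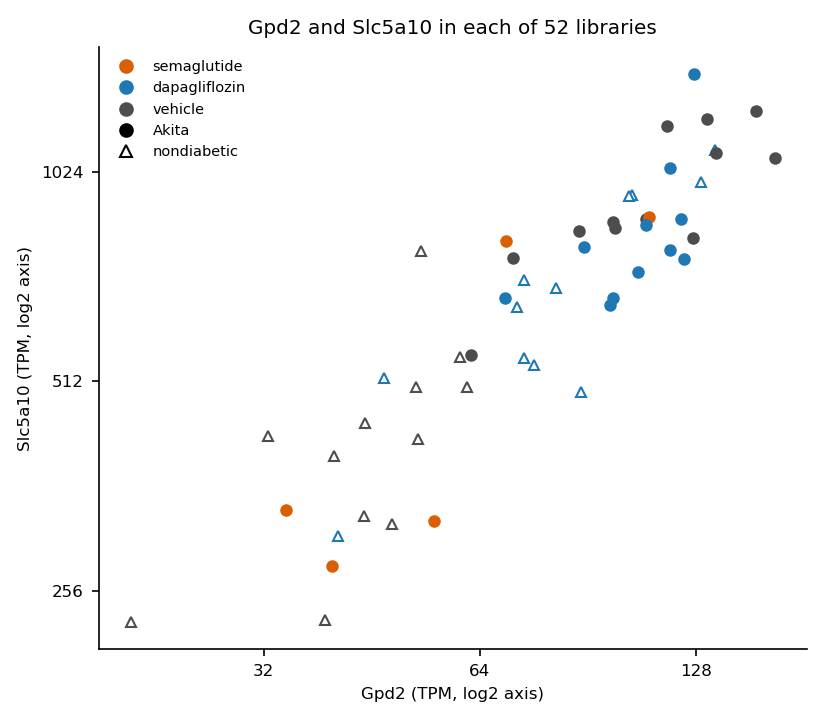
Level of Slc5a10 (vertical axis) against Gpd2 (horizontal axis) in the 52 libraries, both in TPM on log2 axes, coloured by treatment and with filled circles for Akita and open triangles for nondiabetic mice. The points lie along a line, with Slc5a10 at 5.58 to 14.9 times Gpd2.

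Among the 9 genes, the 36 pairwise r values had a median of 0.40 over all libraries and 0.34 with group means subtracted. After Mdh1 with Mdh2, the closest pairs were Gpd1 with Got2 (0.61) and Mdh2 with Got2 (0.60). Gpd2 with Gpd1 stood at 0.52, and at 0.33 within groups.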

How the data were processed

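Stranded total RNA-seq of laser-captured S3 tubules was used. The authors deposited log10 TPM values per gene, mapped to GRCm38 per the submitters' processing notes; the aligner is not given in the sources used here. Its title line mentions removed outliers, and 2 of the 54 labelled samples (Akita wild type, dapagliflozin replicate 2 and semaglutide replicate 1) are not analysed here. Values were turned back to TPM, with blank cells (7.02%) as 0. In 51 of 52 libraries they sum to more than 1000000, so between-library scale is uncertain. Replicates are numbered in accession order.

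The 15424 genes whose mean reached 1 TPM entered the test as log2(TPM + 1) with limma 3.58.1 (R 4.3.3): a mean per group over all 9 groups, empirical Bayes with trend and robust options, Benjamini-Hochberg adjustment over all tested genes, threshold 0.05. A log2 change on this scale understates that of low genes. Averaged comparisons weight their groups equally. Named genes are the 9 members, Slc5a1 and Slc5a2, up to 4 called genes per pathway list, and the 5 genes with the highest Pearson r with Gpd2, over all libraries and within groups. A gene that this rule names, with its pathway list, is not reported here. Got2's copies, opposite-strand genes, Slc25a12 and Sqor were named after their values were seen. The members and lists were chosen with earlier results of these data known. The limma fit was tested on simulated data for some of the comparisons. Other steps ran in Python 3.11.15 and had no such test. Positions are from GENCODE for GRCm38. Alternatives were the pseudocount, the low-value filter, 3 scalings, array weights, 4 covariates, the compared groups alone and leaving out each library. Chosen after seeing the data were leaving out the 3 libraries highest in other cell types, the sum of TPM as covariate, and the dapagliflozin comparison in nondiabetic knockout mice.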

Additional observations from a re-analysis of the deposited data

Results flagged for a closer look

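A check of every group of the 9 genes for a library far from the others marked 2 of 81 groups, where chance marks about 5%. Gpd1 was lowest in Akita wild type on vehicle replicate 3, at 119 TPM, against 176 to 221 TPM in the other 5 libraries. Got2 was lowest in Akita knockout on dapagliflozin replicate 3, at 76.3 TPM, against 104 to 120 TPM in the other 5. On the log2(TPM + 1) scale each gap to the nearest library was over the limit for 6 libraries (0.636 and 0.674 of the group's range, limit 0.625). In TPM, a scale added after seeing the data, the same gaps were 0.562 and 0.623 of the range, under that limit, and the 1 gap over it was that of Got1 in nondiabetic knockout on dapagliflozin replicate 3, the highest library at 113 TPM (0.742 in TPM, 0.583 on the log2 scale).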

How the results depend on the processing

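No result changed its called direction under an alternative. The count of members past the threshold for averaged diabetes, 1 as reported, was 0 with no filter on low values, with median-ratio scaling, with a sum of 1000000 with or without mitochondrial genes, with other cell types, mitochondrial rRNA or the sum of TPM as covariate, with the compared groups alone and without the 3 libraries highest in other cell types, and 0 to 1 with a library left out. For semaglutide it was 0 as reported, 1 with array weights or the library number as covariate, and 0 to 1 with a library left out; the gene was Gpd2 each time (adjusted p 0.0165, 0.0294 and 0.0066). The causes were not tested. No other count of members moved.

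Counts over all genes moved more. For diabetes in wild type on vehicle 60 genes passed, against 34 with the compared groups alone, 143 with the library number, 29 with the sum of TPM, 38 scaled without mitochondrial genes, and 39 to 148 with a library left out (148 without nondiabetic wild type on vehicle replicate 5). Averaged, 149 passed, against 304 with the library number, 82 with other cell types, 76 with the sum of TPM, 83 without the 3 libraries, 53 at a sum of 1000000, 72 without mitochondrial genes, and 97 to 204 with a library left out. The split of higher and lower calls in wild type on vehicle was 52 and 8 as deposited, 16 and 30 at a sum of 1000000, and 22 and 16 without mitochondrial genes. For the averaged knockout 8 passed (2 higher, 6 lower), against 19 with array weights and 169 at a sum of 1000000 (164 higher, 5 lower); without mitochondrial genes 6 were higher and 5 lower. For the knockout in Akita mice 4 passed, against 8 with array weights. For semaglutide 0 passed by limma (800 at an unadjusted p under 0.05), against 12 with array weights, 2 with the library number, 1 without the 3 libraries and up to 3 with a library left out. The other comparisons had 0 to 2 calls under these alternatives. No paired analysis was possible because the library numbers in the titles are unique to each library. Depth is unknown.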

Other observations

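With group means subtracted, the genes most like Gpd2 over the 52 libraries were Slc5a10 (r 0.82), Folr1, a folate receptor (0.73), Slc2a5 (0.72), Hsd17b10, a mitochondrial hydroxysteroid dehydrogenase (0.71), and Slc23a3 (0.70). Folr1 averaged 336 ± 86.7 TPM in Akita and 271 ± 102 TPM in nondiabetic wild-type mice on vehicle. Slc23a3 averaged 46.2 ± 8.62 TPM in Akita and 24.7 ± 10.5 TPM in nondiabetic wild-type mice on vehicle.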
